A study of Homo sapiens with 53 samples.

Results

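The regions described here are the places where Flag-tagged TET1 was enriched on chromatin in HEK293T cells after 72 h of BPK-25 or of DMSO. They are all the intervals of the TET1 peak list of each treatment, with intervals that overlapped or touched joined into 1 peak. This gave 447 TET1 peaks under BPK-25 and 5951 under DMSO, 6398 of the 706206 peaks in the 10 lists of the series. HEK293T is a human embryonic kidney cell line, and the TET1 line is an edited derivative of it, according to the labels. Its cells received BPK-25 at 30 µM for 72 h, or DMSO, the solvent, for 72 h. Each treatment had 3 immunoprecipitates with an antibody against Flag and 3 sonicated inputs. The labels state neither how the tag was introduced nor whether the line is 1 clone. The other lists cover Flag-tagged TET2 and TET3, each in a line of its own, and MBD3 and CTCF in parental cells, under the same treatments. The samples used here include 2 TET2 immunoprecipitates under DMSO, replicates 1 and 3, although the TET2 list is named for 3 replicates. Peak lists hold no expression values, so the identity of the cells was not checked against marker genes.

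TET1 belongs to a family of dioxygenases that oxidise 5-methylcytosine to 5-hydroxymethylcytosine and further products, a route to the removal of DNA methylation. It carries a CXXC domain, a zinc finger that binds unmethylated CpG-rich DNA, and is best known from CpG-rich promoters. TET2 has lost this domain. MBD3 is a subunit of NuRD, a complex that moves nucleosomes and deacetylates histones, and CTCF is the zinc-finger protein of insulators and loop anchors. BPK-25 is known here by its code name only. It has been described as a compound that leads to the loss of NuRD proteins, and the question of the comparison is where TET1 was still found after that treatment.

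Each list is named for replicates 1 to 3 together, so there was 1 value per treatment, no spread between replicates and no test between treatments. The values below describe these 2 lists, and the intervals beside shares are exact Clopper-Pearson 95% intervals for counting error only. Fold enrichment, the ratio of fragments at a summit to the local background, and the -log10 q are the authors' values. The pileup, the number of fragments over a summit, and the local background were recovered from them. The lowest local background of a list, here called the genome background, follows both the number and the length of its fragments. It was 1.75 fragments under BPK-25 and 1.85 under DMSO, a ratio of 94.8%. The narrowest interval was 164 bp under BPK-25 and 184 bp under DMSO, and taken per base of this width the ratio would be 106%. The ratio is therefore a scale for pileups and not a ratio of read numbers, which were not used here. The lowest pileup called was 10 fragments under BPK-25 and 9 under DMSO, and the lowest -log10 q was 1.31 in both lists.

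TET1 peaks were far fewer under BPK-25. The 447 BPK-25 peaks covered 136 kb and the 5951 DMSO peaks 1856 kb, a ratio of peak numbers of 0.0751. The fall was steepest among weak peaks. Fold enrichment had a median of 5.20 under BPK-25 (quartiles 3.81 and 7.60) and 4.04 under DMSO (3.44 and 4.85). At least 10-fold enrichment was reached by 46 BPK-25 peaks, which is 10.3% of that list, and by 144 DMSO peaks, which is 2.42%. The strongest enrichment of all was 18.0-fold under BPK-25 and 39.9-fold under DMSO. Among DMSO peaks enriched above the highest BPK-25 value, some overlapped a BPK-25 peak (up to 20.4-fold) and others did not (up to 39.9-fold). Peaks were narrower under BPK-25, with a median width of 214 bp, against 267 bp under DMSO.

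**Figure D1:**
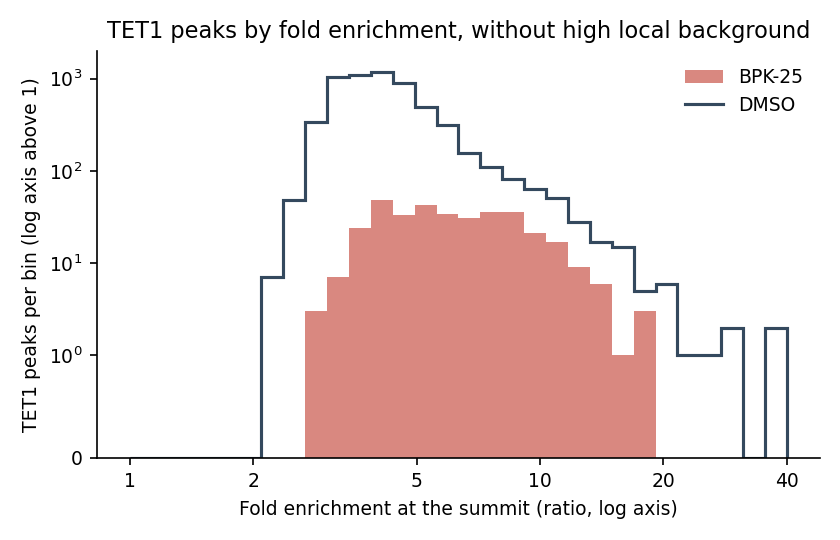
Number of TET1 peaks (vertical, log axis above 1) by fold enrichment at the summit (horizontal, log axis) for the 352 BPK-25 peaks and the 5915 DMSO peaks without high local background. The DMSO list is dominated by peaks near its median of 4.05-fold, whereas the BPK-25 list is broad, with a median of 5.89-fold.

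Some TET1 peaks lay in regions where the local background itself was very high, and these were set apart. A local background of 20 or more times the genome background, a limit set with earlier results of these data known, was found at 95 BPK-25 peaks (21.3%) and at 36 DMSO peaks (0.605%). These peaks were barely enriched, with a median fold enrichment of 1.94 under BPK-25 and 1.60 under DMSO. The most extreme, at chr1:121484397-121485408 in hg19, had a local background 3904 times the genome background under BPK-25 and 3319 times under DMSO, with fold enrichments of 2.02 and 1.89. Without them, 352 BPK-25 and 5915 DMSO peaks remained, a ratio of 0.0595. The decrease in peak number was larger without them than with them.

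Of the 5951 DMSO peaks, 273 overlapped a BPK-25 TET1 peak by at least 1 bp, a retention of 4.59% (4.07 to 5.15%). Since every DMSO TET1 peak entered this comparison, 4.59% is also its background. Over the DMSO peaks of all 5 proteins together, 46.6% were retained, a figure in which the far longer MBD3 and CTCF lists weigh most. Without high local background, 246 of 5915 TET1 peaks (4.16%) were retained and 5669 were lost. Lost means here that no TET1 peak was called at the site under BPK-25, not that TET1 was absent. Retention moved by more than 1.5 times with the threshold, and was 11.6% where a -log10 q of at least 5 was required in both lists and 21.9% where 10 was required.

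Retained peaks came mainly from the strongest DMSO peaks. The DMSO list was divided by -log10 q into 10 parts of equal size. In the 8 weakest parts together, 31 of 4760 peaks were retained (0.651%), and no part of these exceeded 1.51%. The ninth part reached 4.54%, and the strongest part 36.1% (32.2 to 40.1%), with 215 of 596 peaks. Even there, most peaks were lost. Among DMSO peaks without high local background, 53 of the 100 strongest, 135 of the 250 strongest and 217 of the 1000 strongest were retained. Of the 10 strongest, 2 were retained, with an exact interval of 2.52 to 55.6% that holds the share of the 100 strongest. With high local background included, 5 of the 10 strongest were retained. Of the 144 DMSO peaks enriched at least 10-fold, 70 (48.6%) were retained.

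**Figure D2:**
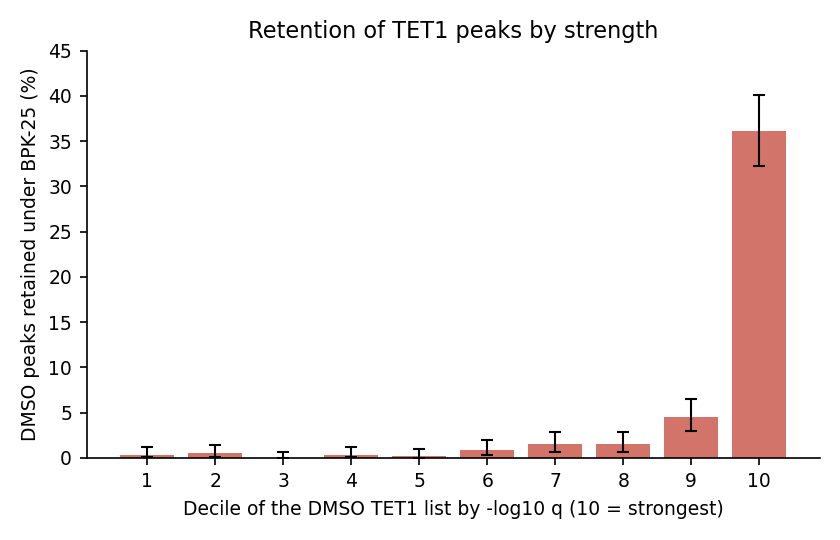
Share of DMSO TET1 peaks that overlapped a BPK-25 TET1 peak (vertical, %) in each decile of the DMSO list by -log10 q (horizontal, 10 is the strongest). Error bars are exact 95% intervals for counting error. Bars stay at or under 1.51% up to the eighth decile, reach 4.54% in the ninth and 36.1% in the tenth.

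The fragments behind the lists set what a missing call can mean. Each DMSO pileup and its local background were scaled by the ratio of genome backgrounds, and 4494 of 5951 DMSO peaks (75.5%) would still have passed the lowest -log10 p of the BPK-25 list. Of these, 268 (5.96%) were retained. For weaker peaks the limit is loose. Over the 4217 lost peaks that would have passed, without high local background, the absence of a call allows at most 0.820 of the scaled DMSO pileup at the median. For the 376 lost peaks of the strongest decile it allows at most 0.457 (quartiles 0.374 and 0.507), and at 264 of them (70.2%) less than 0.5. These limits assume that pileup and local background scale with the genome background. At the 227 retained sites described below the local background did not keep to this scale, with a median ratio of 0.594. At 18 sites of high local background in both treatments it was 1.21. The limits also take the -log10 p at the summit as the only condition for a call. Whether a minimum width was required as well is not known here, and a narrower stretch could then have gone uncalled. Scaled further by the narrowest intervals, an alternative chosen after seeing the data, the median limit for the 376 peaks was 0.407.

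The strongest lost regions were picked for their high DMSO values, so they show the extreme and not the usual size of the decrease. At chr17:1372407-1372907 the DMSO list had a pileup of 173 fragments and a fold enrichment of 39.6, and the BPK-25 list had no TET1 peak within 1000 bp. Under the same assumptions, the missing call allows there at most 8.54% of the scaled DMSO pileup. At chrX:1324244-1325456 the DMSO pileup was 120 fragments, at 29.1-fold, and at most 11.4% is allowed under BPK-25. These are the lowest limits among the 10 strongest lost regions. The others included chr18:11688880-11689367, at 28.2-fold with 92 fragments, chr16:77822072-77822463, at 25.2-fold with 111 fragments, and chr2:224810024-224810379, at 21.9-fold with 65 fragments.

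TET2 and TET3 were still found at most of these regions. Under BPK-25, 9 of the 10 had a TET3 peak and 8 had a TET2 peak. Over all 5669 lost peaks without high local background, these shares were 41.0% for TET3 and only 1.85% for TET2. Over the 376 lost peaks of the strongest decile they were 79.8% and 18.1%, so the 10 regions do not stand for lost peaks in general. Under DMSO all 10 had both. At chr17:1372407-1372907 TET3 was 32.1-fold enriched under BPK-25 and 64.3-fold under DMSO, and TET2 was 19.8-fold and 50.4-fold enriched. At chr13:74614302-74614705 the TET3 enrichment was 11.7-fold under BPK-25 and 11.5-fold under DMSO, while TET1, 21.6-fold enriched under DMSO, had no BPK-25 peak. The exception for TET3 was chr2:224810024-224810379, where neither TET2 nor TET3 had a BPK-25 peak.

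**Figure D3:**
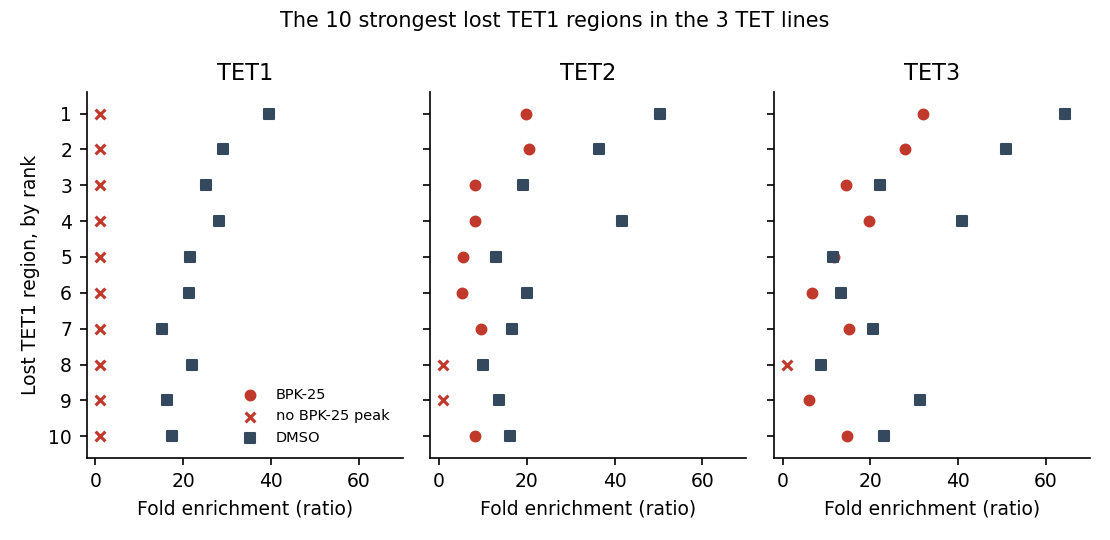
Fold enrichment (horizontal) of TET1, TET2 and TET3 under BPK-25 (red circles) and DMSO (dark squares) at the 10 strongest TET1 regions lost under BPK-25, ranked by -log10 q from the top. A red cross near the left edge marks a region with no BPK-25 peak and is not a value. TET1 has a cross in all 10 rows, TET2 in 2 and TET3 in 1, and the TET2 and TET3 values under BPK-25 mostly lie left of those under DMSO.

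Retained regions without high local background were also weaker under BPK-25 in most cases. The strongest, chr1:16872039-16872643, had a pileup of 59 fragments under BPK-25 and 127 under DMSO, with fold enrichments of 10.5 and 15.6. At chr19:48421460-48421877 the pileup was 32 fragments under BPK-25 and 102 under DMSO, at 5.77-fold and 13.5-fold. At chr15:79152410-79153150 it was 47 under BPK-25 and 67 under DMSO, at 15.9-fold and 20.4-fold. In each of the 10 strongest retained regions the pileup was lower under BPK-25. In 1 of the 10, chr15:89878075-89878561, the fold enrichment was nevertheless higher, at 12.4 under BPK-25 and 11.3 under DMSO, with pileups of 45 and 98 fragments. All 10 had TET2 and TET3 peaks under both treatments.

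The same holds over the 227 retained sites whose summits lay within 100 bp of each other, without high local background. The pileup was 13.7 times the genome background at the median under BPK-25 and 22.7 times under DMSO. The ratio of BPK-25 to DMSO within a site had a median of 0.593 (quartiles 0.475 and 0.765, range 0.176 to 1.47), and 210 of the 227 sites (92.5%) were lower under BPK-25. Scaled further by the narrowest intervals, the median ratio was 0.529. These sites were called in both lists, so sites that fell further are not among them. The local background at the same sites was lower to the same degree, at 1.17 times the genome background under BPK-25 and 2.18 times under DMSO, a median ratio of 0.594. Fold enrichment, which divides by that local background, therefore differed less, with a median of 7.27 under BPK-25 and 8.43 under DMSO, and it was lower at 135 of 227 sites. The part of the local background in the decrease was not tested. Peaks at these sites were narrower, with a median of 216 bp under BPK-25 and 375 bp under DMSO. The 18 shared sites with high local background in both treatments went the other way, with a median pileup ratio of 1.54. Of these 18, 1 had a lower pileup and 2 a lower fold enrichment under BPK-25.

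TET3 at the shared sites without high local background differed from TET1. TET3 peaks with summits at 200 of these sites had a pileup ratio of 0.896 (quartiles 0.726 and 1.12), whereas TET1 at the same 200 sites had 0.591. The TET3 pileup was lower under BPK-25 at 128 of the 200 sites. The TET1 ratio was the lower of the pair at 176 of 200 sites, also when scaled by the narrowest intervals, where the median TET3 ratio was 0.805. The local background of the TET3 lists was lower under BPK-25 as well, with a ratio of 0.610, and TET3 fold enrichment was 13.8 at the median under BPK-25 and 10.3 under DMSO. The TET1 medians of 7.27 and 8.43 are over all 227 sites, whereas the 200 were those with a TET3 summit within 100 bp in both treatments. The part of the local background in either difference was not tested. TET1 and TET3 come from different lines, each with its own inputs, and with 1 list each the difference between them has no replicate check.

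**Figure D4:**
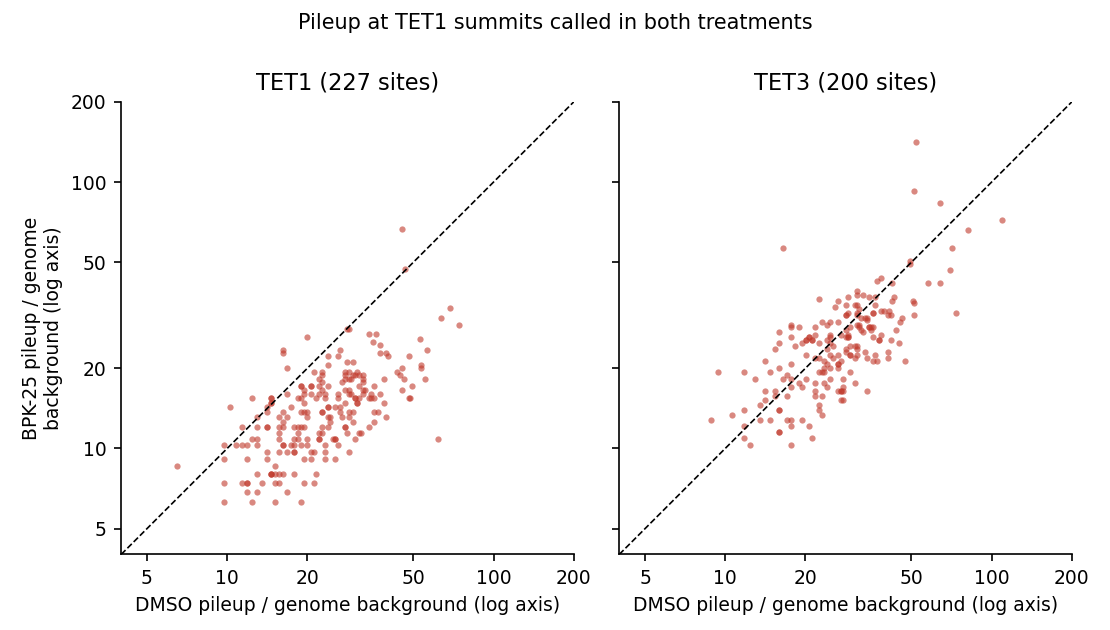
Pileup over genome background under BPK-25 (vertical) and DMSO (horizontal), both on log axes, at TET1 summits called in both treatments, for TET1 (227 sites) and for TET3 (200 of the same sites). Points under the dashed line of equality are lower under BPK-25. This holds for 210 of 227 TET1 sites, with a median ratio of 0.593. It also holds for 128 of 200 TET3 sites, with a median ratio of 0.896.

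Retained and lost TET1 peaks differed in the other TET proteins found beside them. Of the 246 retained peaks without high local background, 95.9% overlapped a DMSO TET3 peak and 80.1% a DMSO TET2 peak (interval 74.5 to 84.9%). Of the 5669 lost peaks, 57.6% overlapped a DMSO TET3 peak and 11.1% a DMSO TET2 peak (interval 10.3 to 12.0%). Peaks with TET2 and TET3 both present under DMSO numbered 770, and 196 (25.5%) were retained. Of the 2729 with TET3 alone, 40 were retained (1.47%), and of the 2357 with neither, 9 (0.382%). TET2 alone accompanied 59 peaks, of which 1 was retained.

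Strength moved with this, since peaks with TET2 and TET3 had a median -log10 q of 12.3, against 3.75 with TET3 alone and 2.84 with neither. Within the strongest decile the order was the same. There, 176 of 409 peaks with both (43.0%, interval 38.2 to 48.0%) were retained, and 18 of 138 with TET3 alone (13.0%, interval 7.92 to 19.8%). Of the 18 peaks of that decile with neither, 0 were retained, which allows a share of up to 18.5% by the exact interval. Peaks with both were stronger than those with TET3 alone within the decile too, with median fold enrichments of 8.50 and 7.06.

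The 3 TET lists also differ in length, with 447 TET1, 509 TET2 and 13360 TET3 peaks under BPK-25, against 5951, 1233 and 14129 under DMSO. Over all its own DMSO peaks, TET1 retained 4.59%, TET2 24.7% and TET3 31.9%. At the 770 TET1 peaks that also had TET2 and TET3 under DMSO, a BPK-25 peak was called for TET1 at 25.5%, for TET2 at 30.4% and for TET3 at 82.7% (interval 79.9 to 85.3%). With the same -log10 p required in all 6 TET lists, an alternative chosen after seeing the data, these shares were 27.5%, 33.0% and 83.8%. The part of the list lengths in these shares was not tested. The intervals of TET1 and TET2 in the lists as deposited overlapped, at 22.4 to 28.7% for TET1 and 27.2 to 33.8% for TET2. At the 3499 TET1 peaks with TET3 under DMSO, TET1 was called under BPK-25 at 6.74% and TET3 at 55.8%. Of the 5669 lost TET1 peaks, 41.0% carried a TET3 peak under BPK-25, near the 43.4% of all 5915 DMSO TET1 peaks. Among lost peaks that share was 52.7% where TET3 had been present under DMSO and 25.2% where it had not.

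At 244 lost TET1 summits of the strongest decile, chosen for a TET3 summit in both treatments, the TET3 pileup ratio had a median of 0.723. The local background ratio at the same sites was 0.700. TET3 fold enrichment had a median of 8.32 under BPK-25 and 8.28 under DMSO, and was lower under BPK-25 at 126 of the 244 sites.

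MBD3, the NuRD subunit, was called at most retained and lost TET1 sites under DMSO, at 90.7% and 83.2%. Under BPK-25 an MBD3 peak was called at 37.4% of retained and 56.1% of lost sites, intervals of 31.3 to 43.8% and 54.8 to 57.4%. CTCF was called under BPK-25 at 37.0% of retained and 54.4% of lost sites. Under DMSO CTCF was called at 56.5% of retained and 68.4% of lost sites. Over all 5915 DMSO TET1 peaks, most of them lost, MBD3 was called at 55.3% under BPK-25 and 83.5% under DMSO. For CTCF these shares were 53.7% and 67.9%. The shares of lost sites lie near these, and those of retained sites are lower except for MBD3 under DMSO. In the strongest decile, MBD3 under BPK-25 was found at 36.6% (29.8 to 43.8%) of 194 retained and 65.4% (60.4 to 70.2%) of 376 lost sites, and under DMSO at 92.3% and 92.6%. Retained peaks of that decile were still the stronger, with a median -log10 q of 27.6 against 16.2 for lost ones. The BPK-25 lists of MBD3 and CTCF held 243213 and 245419 peaks, against 82358 and 99587 under DMSO, and the part of these list lengths in the shares was not tested.

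**Figure D5:**
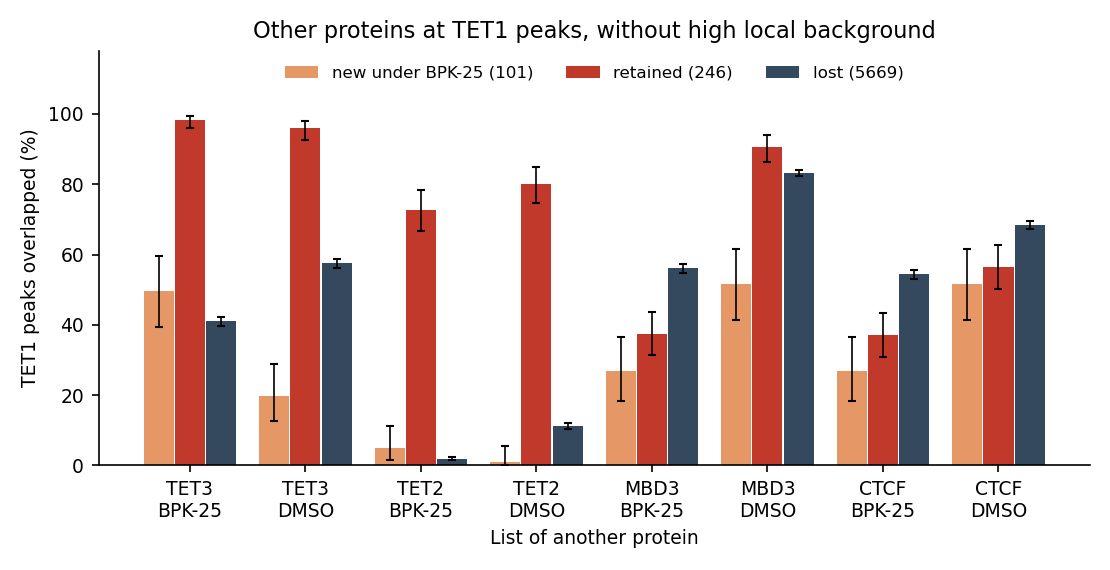
Share of TET1 peaks (vertical, %) overlapped by each list of another protein (horizontal) for TET1 peaks that were new under BPK-25 (101), retained (246) or lost (5669), all without high local background. Error bars are exact 95% intervals for counting error. Retained peaks stand out by TET2, at 72.8% under BPK-25 and 80.1% under DMSO. They carry less MBD3 and CTCF under BPK-25 than lost peaks, whose shares are near those of all DMSO TET1 peaks.

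Retained TET1 summits lay close to those of the other TET proteins. Where the peaks overlapped, the median distance of a retained TET1 summit was 12 bp to the DMSO TET3 summit and 13 bp to the DMSO TET2 summit. For lost TET1 summits these distances were 49 bp and 30 bp. CTCF summits under DMSO were farther off, at 148 bp from retained and 80 bp from lost TET1 summits, and MBD3 summits lay at 34 and 82.5 bp. TET3 at retained sites was also stronger, with a median of 9.93-fold against 5.04-fold at lost sites. The TET1 peaks themselves differed in strength, with a median pileup of 42 fragments at retained and 16 at lost sites. The part of strength in the summit distances was not tested.

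New TET1 peaks were few and mostly weak. Of the 447 BPK-25 peaks, 172 (38.5%, interval 33.9 to 43.2%) overlapped no DMSO TET1 peak, a share that is also the background of this comparison. Over the BPK-25 peaks of all 5 proteins it was 80.3%. Of the 95 BPK-25 peaks with high local background, 71 were new (74.7%), and of the other 352, 101 (28.7%). Those 101 had a median fold enrichment of 4.36 and a median pileup of 14 fragments, against 7.21 and 24 for the 251 BPK-25 peaks at DMSO sites.

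Many of the new peaks lay at strong CTCF sites of the DMSO-treated parental cells. Of the 101, 52 (51.5%) overlapped a DMSO CTCF peak, against 56.5% of retained and 67.9% of all 5915 DMSO TET1 peaks. The overlap was thus not more frequent at new peaks, and the difference lay in the strength of the CTCF peaks. These CTCF peaks had a median fold enrichment of 99.3, against 16.9 at retained and 17.2 at lost TET1 peaks, and the CTCF summit lay 28.5 bp from the TET1 summit at the median. The DMSO MBD3 summit lay 33.5 bp away, and the DMSO TET3 summit 90.5 bp. TET3 under BPK-25 was called at 49.5% of new peaks and TET3 under DMSO at 19.8%. Both shares were lower than at the 251 BPK-25 peaks at DMSO sites, which had 98.4% and 96.0%. Over all 447 BPK-25 peaks, high local background included, they were 79.0% and 64.2%. Of the 10 strongest new regions, 7 lay at DMSO CTCF peaks of 115-fold to 260-fold enrichment. At chr6:53036774-53036976, TET1 was 5.41-fold enriched under BPK-25 with 19 fragments, TET3 15.4-fold under BPK-25 with no DMSO peak, and CTCF 10.9-fold under BPK-25 and 260-fold under DMSO. The strongest new region, chr1:67624569-67624876, with 6.56-fold enrichment and 23 fragments, overlapped no peak of any other list.

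Retained peaks were unevenly spread over the chromosomes. Without high local background, chromosome 6 held 62 of the 246 (25.2%) but 8.67% of the DMSO TET1 peaks, and 12.1% of its 513 peaks were retained. On chromosome 14 the retained share was 8.76% of 194 peaks, and on chromosome 19 it was 7.50% of 320. On chromosome 3, 1 of 249 peaks was retained, and on the X chromosome 0 of 151, which allows up to 2.41% by the exact interval.

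Much of this came from 8 short groups, defined after the values were seen as at least 5 retained peaks with gaps of at most 250 kb. The largest, chr6:26286624-27870873, spanned 1584 kb and held 57 retained of 105 DMSO peaks. The densest, chr14:21077411-21152417, held 12 of 14. The others were chr5:180523978-180649548 with 10 of 13, chr17:8022310-8130506 with 8 of 14, chr19:50601015-50879744 with 10 of 18, chr1:16872039-17186887 with 5 of 10, chr16:3200599-3333475 with 5 of 14 and chr1:161369230-161510267 with 6 of 20. All the retained peaks of these groups had a TET3 peak under BPK-25, as did 97.0% of the 133 retained peaks outside them without high local background. Because the groups were drawn around retained peaks, their shares are a description only. Outside them 160 of 5743 DMSO peaks (2.79%) were retained, and 117 of 466 (25.1%) in the strongest decile. Outside the groups 74.4% of 133 retained and 10.8% of 5574 lost peaks had TET2 under DMSO.

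The hg19 positions were not matched to genes. For chromosome totals only, the RefSeq annotation of GRCh38.p14 was consulted for transfer RNA genes, a class chosen after the values were seen because it is clustered on few chromosomes. It lists 155 of 443 such genes on chromosome 6 (35.0%). Without high local background, that chromosome held 25.2% of retained and 8.67% of all DMSO TET1 peaks. Chromosome 1 has 98 such genes (22.1%), but held 13.0% of retained and 12.8% of all these DMSO peaks. Neither chromosome 1 nor chromosome 19 follows such a parallel, the latter with 24 retained peaks and 7 transfer RNA genes. A chromosome total does not place any peak at such a gene.

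A block on chromosome 10 concerns the tagged gene's own chromosome. RefSeq places TET1 on chromosome 10. The TET1 lists held 6 peaks under BPK-25 and 7 under DMSO between chr10:70332139-70451564, a stretch of 119426 bp. Of these, 5 under BPK-25 and 6 under DMSO had high local background, up to 119 times the genome background under BPK-25 and 167 times under DMSO. TET3 had 2 peaks in the stretch under BPK-25 and 7 under DMSO, of which 0 and 5 had high local background. Its local background there reached 2.41 times under BPK-25 and 46.3 times under DMSO, and the TET2 lists had no peak there. The TET3 list under DMSO thus resembled the TET1 lists in this stretch. Why it did, and whether this bears on its other peaks, was not tested. In parental cells, CTCF had 9 peaks in the stretch under BPK-25 and 2 under DMSO, and MBD3 had 4 and 3. Fold enrichments of TET1 in the stretch did not exceed 5.81 under BPK-25 and 3.25 under DMSO. Whether the stretch overlaps the gene in hg19 was not tested.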

How the data were processed

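ChIP-seq peak lists of Flag-tagged TET1 and of 4 other proteins, 1 list per protein and treatment, were used as deposited by the authors. Each list is named for replicates 1 to 3 and was taken as called on pooled samples, although 2 TET2 immunoprecipitates under DMSO are among the samples used here. The submitters' processing notes name the build hg19 and the tools MACS2 2.1.2, Bowtie2 2.3.4, FastQC 0.11.7, bedtools 2.25.0 and SAMtools 1.9. What each was used for, and with which parameters, is not given in the sources used here. The deposited lists give for each summit a fold enrichment (a ratio), a -log10 p-value, a -log10 q-value and the summit's offset. The lowest -log10 q of 1.31 in both TET1 lists is close to a q of 0.05.

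Intervals that overlapped or touched were merged, keeping the summit of highest -log10 q. At each summit, fold enrichment was read as (n + 1) over (background + 1), and with the Poisson -log10 p this yields the pileup n and the local background. Of pileups under 200, 100% came within 0.02 of a whole number in both TET1 lists. The lowest local background of a list served as the genome background; read totals were not used here. The calculation was tested on simulated data. Overlap meant at least 1 bp. Regions were named by rule, as the 10 of highest -log10 q among retained, lost and new peaks on chromosomes 1 to 22 and X with a local background under 5 times the genome background, lost and new ones with no peak of the other treatment within 1000 bp. Coordinates are hg19 and 1-based, and no hg19 sequence or annotation was used. The regions, lists and limits were chosen with earlier results of these data known. Python 3.11.15, NumPy 2.4.6, pandas 2.3.3, SciPy 1.17.1 and Matplotlib 3.10.9 were used.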

Additional observations from a re-analysis of the deposited data

How the results depend on the processing

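Of 60 recomputed shares, 22 stayed within the exact interval of the reported one. The ratio of peak numbers stayed within 1.5 times at 4 of 8 alternatives. The median pileup ratio at shared summits (0.593) lay between 0.529 and 0.633 under 9 alternatives. It was 0.677 at a fold enrichment of at least 10, over 17 summits, and without peaks at TET3 peaks 1 summit was left, which gives no median to compare. Keeping only chromosomes 1 to 22 and X, or merging intervals within 500 bp, moved no share out of its interval. The other changes follow in a fixed order: the ratio of peak numbers (0.0751), the retained share (4.59%), the new share (38.5%), retention in the strongest decile (36.1%), and the lost peaks with TET3 under BPK-25 (41.1%), with MBD3 under DMSO (83.2%) and with CTCF under DMSO (68.3%). A -log10 q of at least 5 gave 0.169, 11.6%, 30.2%, 56.9%, 62.6%, 90.4% and 78.3%. A -log10 q of at least 10 gave 0.329, 21.9%, 32.9%, 48.6%, 80.6%, 92.1% and 72.9%. A fold enrichment of at least 10 gave 0.319, 13.9%, 56.5%, 13.3%, 93.5%, 88.7% and 50%. These thresholds drop weak peaks, which are mainly DMSO peaks. Leaving out TET1 peaks at TET3 peaks of the same treatment gave 0.0388, 0.289%, 92.6%, 1.65%, 25.5%, 69.7% and 62.6%, so nearly all retained peaks lay at TET3 sites. The same pileup and Poisson p in both lists gave 5.52% retained, 42.0% in the strongest decile, and 44.4%, 86.1% and 71.5% for the lost peaks. Covering 50% of the TET1 peak gave 3.11%, 23.8%, 33.3%, 75.7% and 60.5% for the same 5 values. Limiting both lists to the same number of strongest peaks gave 44.1% retained and 54.6% new. Without high local background 28.7% were new. Without the 8 groups of retained peaks, an alternative chosen after seeing the data, 2.79% were retained. Beyond what each alternative removes by construction, the cause was not tested.

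No paired analysis was possible because each list pools the replicates of a treatment and carries no replicate number. For the same reason leaving out a replicate was not run. A site with no call can hold TET1 below the limit that its depth allows.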
